A study of Arabidopsis thaliana with 8 samples.

Results

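TET5, TET7 and TET8 are tetraspanin genes of Arabidopsis thaliana, and each was measured by 1 probe set on the ATH1 array. They were selected by symbol from the probe sets annotated to exactly 1 gene, which gave 3 of the 22810 probe sets in the table, and their signals on these arrays were already known when they were chosen. They are therefore described here without p-values. RNA came from whole shoots of plants labelled Col-1 with 4 rosette leaves, raised on agar plates under 16 h days and taken 6 h into the day. The groups are spike mix 1, spike mix 2, spike mix 3, spike mix 4, spike mix 5, spike mix 6, spike mix 7 and the reference spike mix, each a set of RNAs added to shoot RNA and each measured on 1 array labelled with biotin. The labels give the same shoots for all 8 arrays and do not say whether the RNA came from separate growths. The mixes differ by their number alone in the labels, which name neither the added RNAs nor their amounts.

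Tetraspanins are small membrane proteins that cross the membrane 4 times, bind one another and partner proteins, and gather into microdomains of the plasma membrane and of endosomal membranes. Plants hold their own branch of the family, with a conserved motif of cysteines in the large extracellular loop. In Arabidopsis, TET5 acts redundantly with its close relative TET6 to limit the growth of leaves and roots. TET8 marks extracellular vesicles that leaf cells release, which carry small RNAs into attacking fungi, and it is widely used as a marker of plant exosomes. TET7 belongs to the same family.

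A few facts of the arrays touch these genes. The arrays all had the same 2% trimmed mean of signal to within rounding, and the array medians lay between 40.7 and 44.1. On the first principal component of 22731 probe sets that spanned under 16-fold, the arrays of mixes 4, 5 and 6 had loadings of 0.50, 0.28 and 0.53, and the other 5 arrays had loadings of -0.38 to -0.11. Markers of shoot tissue were bright, with the light-harvesting gene LHCB4.1 at 3902 ± 404 and the photosystem I gene PSAE-1 at 3308 ± 479 (SD, n = 8 arrays). Of 3 root markers, the expansins EXPA7 and EXPA18, which act in root hairs, had means of 21.0 and 24.6, and the beta-glucosidase gene PYK10 had 999. None of the flower and pollen markers was analysed here. Signals of different probe sets depend on their probes, so fold changes are given only between arrays of 1 probe set, and a mean says how bright a probe set was, not how its RNA ranks among genes.

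TET5 (AT4G23410, probe set 254258_at) was low in mix 1, highest in mix 6 and nearly level on the other 6 arrays. Its signal was 21.4 in mix 1, 48.3 in mix 2, 45.7 in mix 3, 46.4 in mix 4, 44.8 in mix 5, 61.0 in mix 6 and 49.9 in mix 7, against 51.6 on the reference array. Mix 1 stood apart below every other array, mix 6 was the highest, and the other 6 lay between 44.8 and 51.6. The mean was 46.1 ± 11.2 (SD, n = 8), and 49.7 ± 5.54 (SD, n = 7) without mix 1. The span from the lowest to the highest array was 2.85-fold, and it was 1.36-fold without mix 1.

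TET7 (AT4G28050, probe set 253855_at) varied the least of the 3 genes in relative terms. Its signal was 249.9 in mix 1, 240.6 in mix 2, 246.1 in mix 3, 226.1 in mix 4, 231.6 in mix 5, 196.2 in mix 6 and 233.8 in mix 7, against 229.9 on the reference array. The array of mix 6 was the lowest, and the other 7 lay within 1.11-fold of one another. The mean was 232 ± 16.5 (SD, n = 8), and the span over the 8 arrays was 1.27-fold.

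TET8 (AT2G23810, probe set 267293_at) varied more than TET7 in relative terms, with a coefficient of variation of 13.2% against 7.14% for TET7. Its signal was 276.1 in mix 1, 339.7 in mix 2, 335.0 in mix 3, 296.1 in mix 4, 318.1 in mix 5, 409.8 in mix 6 and 338.3 in mix 7, against 282.4 on the reference array. The array of mix 6 was the highest, mixes 2, 3 and 7 lay within a few units of one another, and mix 1 and the reference array were the lowest. The mean was 324 ± 42.7 (SD, n = 8). The span was 1.48-fold, and 1.23-fold without mix 6.

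**Figure D1:**
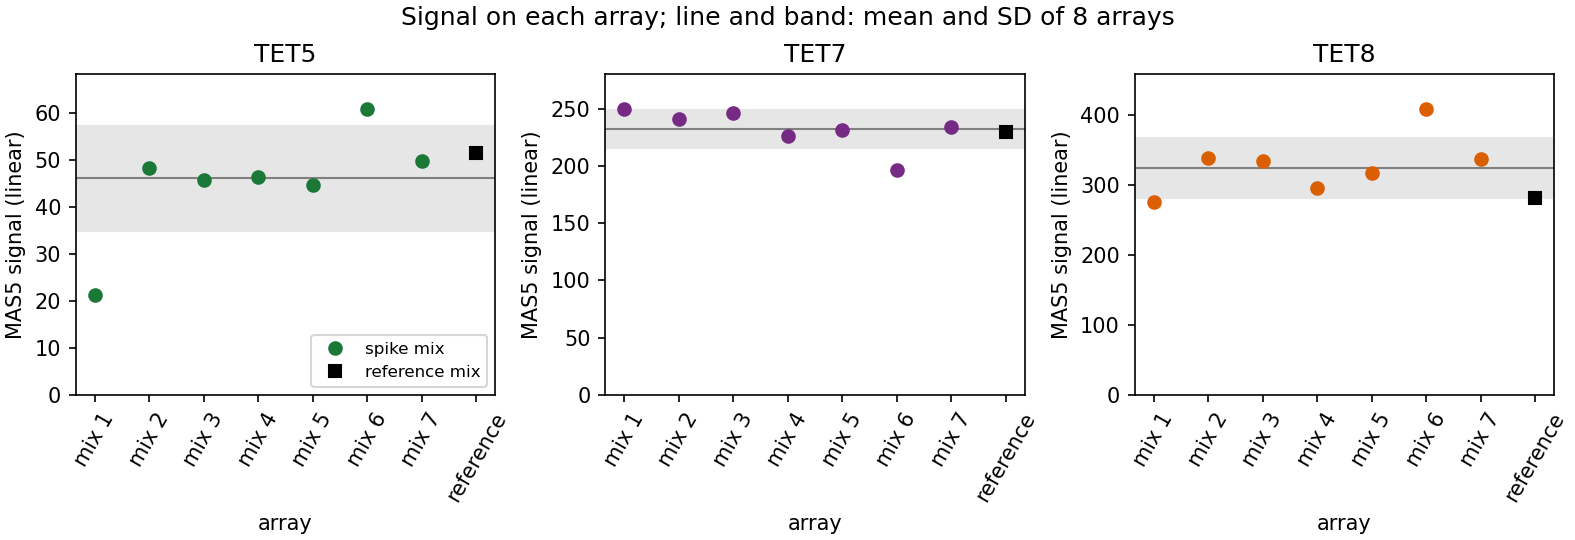
Signal of TET5, TET7 and TET8 on each array, on a linear axis from 0, with circles for the 7 spike mixes and a square for the reference mix; the line and the grey band are the mean and SD of the 8 arrays. TET5 is at 21.4 in mix 1 and at 44.8 or above elsewhere, TET7 is lowest in mix 6 at 196.2, and TET8 is highest in mix 6 at 409.8.

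The comparison of each mix with the reference array asks how far a signal differed between shoot RNAs to which different RNAs were added. Values under 12.9, the 25th percentile of the table, were raised to that floor ahead of the log2 step, and no signal of the 3 genes lay under it. Of the 21 ratios, 3 genes in 7 mixes, 2 were at least 0.32 away from the reference array on the log2 scale, 1 of them lower and 1 higher. Over the 11352 probe sets that spanned under 16-fold and averaged no less than the table's median signal of 42.5, called the brighter probe sets here, 15.2% of such log2 ratios were at least 0.32 away. All 3 genes are among them; the mean signal of TET5 lay just above the limit, at 46.1. By mix, the share of brighter probe sets past 0.32 was 15% in mix 1, 11.9% in mix 2, 13.8% in mix 3, 16.8% in mix 4, 12.3% in mix 5, 23.3% in mix 6 and 13.5% in mix 7. The choice of the genes used these ratios, so nothing is read from the count.

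The lower of the 2 ratios was TET5 in mix 1, with a log2 ratio of -1.27, and it was the only one of the 21 past 1.5-fold or 2-fold. Among brighter probe sets 2.68% of ratios passed 1.5-fold and 0.234% passed 2-fold. In mix 1, the central 95% of brighter probe sets had log2 ratios from -0.46 to 0.48. In the other mixes the log2 ratio of TET5 was between -0.20 in mix 5 and 0.24 in mix 6.

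The higher of the 2 was TET8 in mix 6, with a log2 ratio of 0.54, which lay inside the central 95% of that mix, -0.57 to 0.62. TET8 was above the reference array in 6 of the 7 mixes, with log2 ratios of 0.27 in mix 2, 0.25 in mix 3 and 0.26 in mix 7 after mix 6. All 7 ratios share the 1 reference array, on which TET8 was low: its log2 signal there was -0.25 relative to the median of the mixes, and 9.21% of the other brighter probe sets, and 3.6% of the 500 nearest to TET8 in mean signal, were as far below on that array. The log2 ratios of TET7 ran from -0.23 in mix 6 to 0.12 in mix 1, and none was past 0.32.

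With the mean log2 signal of the other 7 arrays in place of the reference array, 3 of the 21 log2 ratios were past 0.32, and 8.36% of those of brighter probe sets were. They were TET5 in mix 1 at -1.21, TET5 in mix 6 at 0.52 and TET8 in mix 6 at 0.40 on the log2 scale. On this comparison TET8 was lower than the other arrays in mixes 1, 4 and 5, at -0.25, -0.14 and -0.02. For TET5 in mix 6 the mean takes in the low signal of mix 1. Against the median of the other 7 arrays that value was 0.39.

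**Figure D2:**
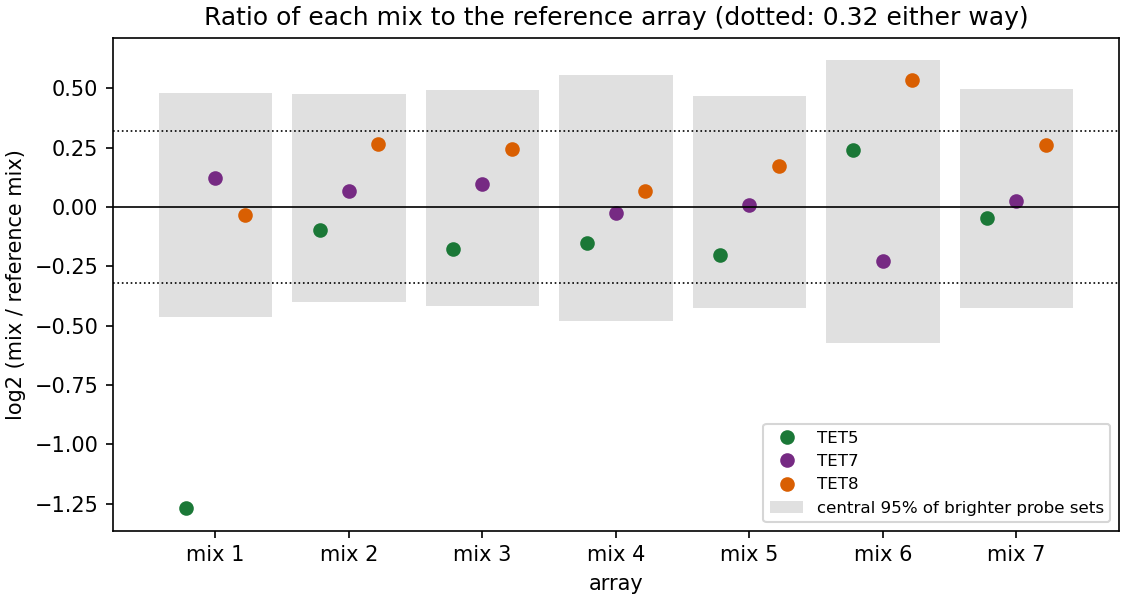
Log2 ratio of each spike mix to the reference array for TET5, TET7 and TET8, with grey bars for the central 95% of 11352 brighter probe sets in that mix and dotted lines at 0.32 either way. TET5 in mix 1, at -1.27, is the only point outside the grey bars.

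The low signal of TET5 in mix 1 was rare among probe sets on that array. It lay 2.26-fold below the median of the other 7 arrays, and 4 of the other 11351 brighter probe sets (0.0352%) were as far below in mix 1. These 4 were named after their values were seen. They were CCT2, an enzyme gene of phosphatidylcholine synthesis, at 23.6 in mix 1 and 35.7 to 60.8 elsewhere, AT4G32350, at 23.7 and 43.7 to 67.4, and the probe sets 245268_at and 264675_at, which are unnamed here. Among the 500 brighter probe sets nearest to TET5 in mean signal, 0.2% were as far below. The log2 signal of TET8 in mix 1 was -0.28 relative to the median of the other 7 arrays. As far below were 6.92% of the other brighter probe sets and 1% of the 500 nearest to TET8 in mean signal. The hybridisation controls were 1.88-fold above the reference array in mix 1, and the 25S rRNA control was at 2198 there, the highest of the 8 arrays, against 846.6 on the reference array.

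On the array of mix 6 the 3 genes were all at an extreme, TET5 and TET8 as their highest and TET7 as its lowest. That array was the highest for 18.9% of brighter probe sets and the lowest for 19.6%, the largest shares of any array for both. The log2 signal of TET8 in mix 6 was 0.37 above the median of the other 7 arrays, and 4.97% of the other brighter probe sets, and 1.6% of the 500 nearest in mean signal, were as far above. The log2 signal of TET5 there was 0.39 above, as 3.85% of the other brighter probe sets and 12% of its 500 nearest were. That of TET7 was -0.25 relative to that median, with 13.1% of the other brighter probe sets and 12.4% of its 500 nearest as far below. The hybridisation controls were 1.75-fold above the reference array in mix 6, and the 25S rRNA control was at 271.6, the lowest of the 8 arrays.

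The 3 genes varied with the 25S rRNA control over the 8 arrays, and this too rested on mixes 1 and 6. On the log2 scale r was -0.70 for TET5, 0.74 for TET7 and -0.60 for TET8, with rho of -0.67, 0.67 and -0.52. Among the other brighter probe sets 4.65%, 2.78% and 8.77% had an r at least as far from 0 with the same sign. Without mixes 1 and 6, the 2 arrays farthest from the median of the control, r was -0.043, 0.23 and 0.17 over 6 arrays. With the hybridisation controls r was -0.40 for TET5, -0.16 for TET7 and 0.33 for TET8. An r at least as far from 0 with the same sign was found in 22.1%, 39.7% and 24.4% of the other brighter probe sets. Without mixes 1 and 6 these r were 0.25, 0.43 and 0.78 over 6 arrays, so the sign changed for TET5 and TET7. With the loading on the first principal component TET7 had r of -0.78 and rho of -0.86, and its r was -0.59 without mixes 4 and 6. An r as low as the -0.78 over 8 arrays was found in 5.65% of the other brighter probe sets. TET5 and TET8 had r of 0.42 and 0.38 with that loading, and 25.9% and 28.3% of the other brighter probe sets had as high an r. These are 9 relations over arrays that share a platform and a scaling, and the part of the controls in the signals of the 3 genes was not tested.

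Set beside probe sets of similar brightness, TET5 had a wide spread over the arrays, TET8 a moderately wide one and TET7 a common one. For TET5 the log2 signals had an SD of 0.45 over the 8 arrays, and the median of its 500 nearest probe sets by mean signal was 0.21. An SD at least as large was found in 2.8% of those 500. For TET8 the SD was 0.18 against a neighbours' median of 0.11, and 11.4% of its 500 neighbours reached it. For TET7 it was 0.11 against 0.12, and 60% reached it.

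The spread of TET5 rested on 1 array. Without mix 1 the SD of TET5 was 0.15, under its neighbours' median of 0.21, and 79.2% of them had an SD at least as large. Without mix 6 the SD of TET8 was 0.13, still above its neighbours' median of 0.10, and 28.4% of them reached it. Without mix 6 the SD of TET7 was 0.054. In each case the array left out was the gene's own farthest one, while its neighbours lost the same array and not their own farthest, so these shares do not rank the genes.

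**Figure D3:**
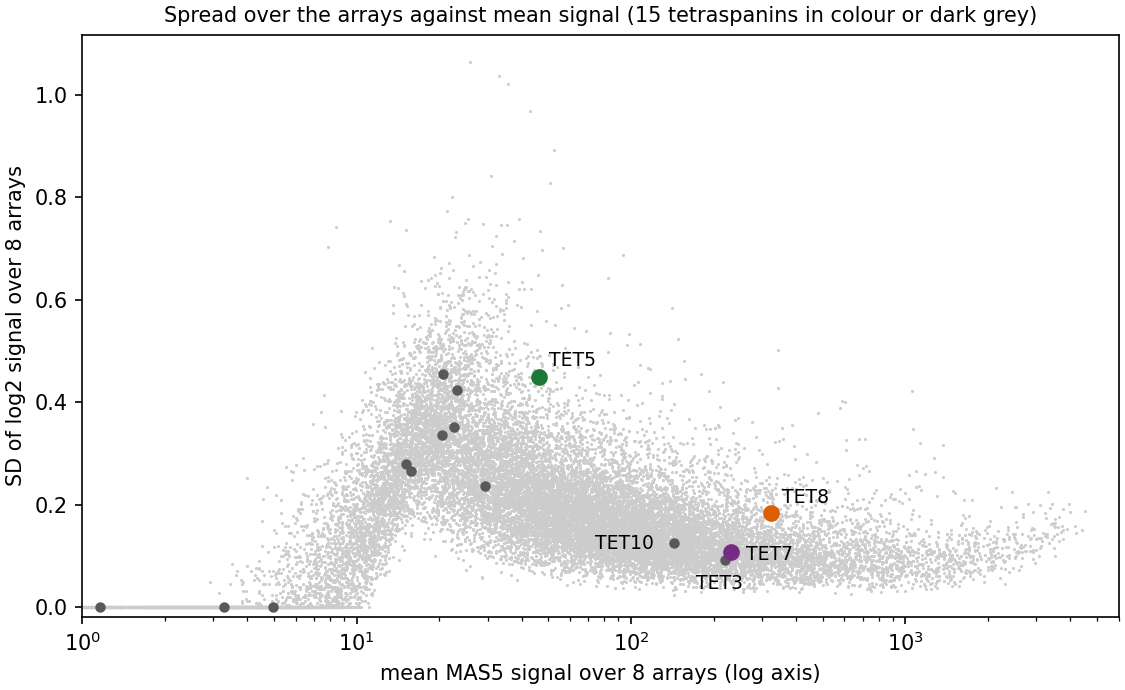
SD of the log2 signals of each probe set against its mean signal over the 8 arrays, on a log axis from 1, for probe sets that spanned under 16-fold (light points) and the 15 tetraspanins (large coloured points for TET5, TET7 and TET8, dark grey for the rest). TET5, at an SD of 0.45, lies above most probe sets of its mean signal, TET8 at 0.18 toward the upper edge and TET7 at 0.11 within the bulk.

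Over the 8 arrays TET5 and TET8 varied in the same direction, and TET7 opposite to both, but each relation rested on the arrays of mixes 1 and 6. The arrays share a platform, a label and a scaling, and the relations are given as descriptions of 3 pairs. Pearson r was 0.64 and Spearman rho 0.55 for TET5 and TET8. For TET5 and TET7 r was -0.64 and rho -0.67, and for TET7 and TET8 r was -0.66 and rho -0.26. Mixes 1 and 6 were the 2 arrays farthest from the median of TET5, and also of TET7. Without them r was -0.28 for TET5 and TET8 and -0.19 for TET5 and TET7, and for TET7 and TET8 it turned to 0.74, over 6 arrays. Leaving out mix 6 alone turned r for TET7 and TET8 to 0.072.

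**Figure D4:**
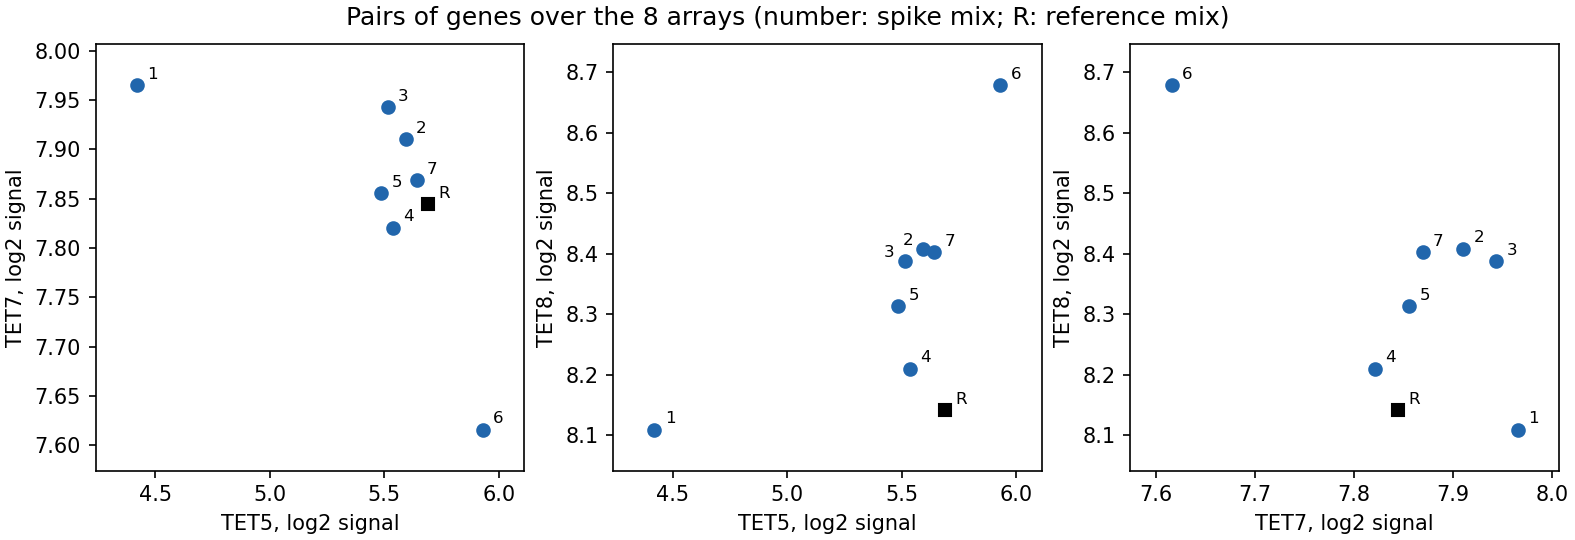
Log2 signal of each pair of the 3 genes over the 8 arrays, with the spike mix number beside each circle and R beside the square of the reference mix. Mixes 1 and 6 lie at the ends of each panel, and the other 6 arrays give r of -0.19, -0.28 and 0.74 from left to right.

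The named probe sets whose profiles were most like each gene were found among 6008 brighter ones with 1 gene. They were picked by r, so a lowest or highest array shared with the gene follows largely from the choice. For TET5 the closest were AT3G52760 at r = 0.98, AT2G02370 at r = 0.95 and AT5G53310 at r = 0.94 over the 8 arrays. All 3 were lowest in mix 1 and highest in mix 6, as TET5 was, and without mix 1 their r was 0.82, 0.68 and 0.81. AT3G52760 had a signal of 98.5 in mix 1 and of up to 174.4 in mix 6. AT2G02370 spanned only 62.1 to 71.3, so its likeness to TET5 is one of pattern, as r measures it, and not of size.

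For TET7 the closest were AT5G27770 and AT1G55890, both at r = 0.99, and AT5G57460 at r = 0.97, and all 3 were lowest in mix 6. Without that array their r was 0.95, 0.95 and 0.88. AT5G27770 had a signal of 543.8 in mix 6 and of up to 878.9 in mix 1. For TET8 they were AT4G03200 at r = 0.96 and AT4G22840 and AT5G13140, both at r = 0.94. All 3 were highest in mix 6, and without it their r was 0.91, 0.85 and 0.88. Of 11351 brighter probe sets, 19 had r of at least 0.9 with TET5 (0.167%), 115 with TET7 (1.01%) and 24 with TET8 (0.211%). As strong an r of the opposite sign was found for 13, 45 and 14 probe sets with the same genes.

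The rest of the family was mostly near or under the floor in these shoots. Of the 17 tetraspanin genes in the TAIR10.1 gene table, 15 had a probe set of 1 gene, and TRN2 and TET17 were not analysed here. Besides the 3 genes, TET3 and TET10 were the only other tetraspanins that reached the table's median on average. TET3, a tetraspanin found at plasmodesmata, had 220 ± 14.2 and spanned 203.5 in mix 4 to 244.3 on the reference array. TET10 had 144 ± 12.7 and spanned 125.6 in mix 7 to 168.0 on the reference array (SD, n = 8 for both).

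TET3 and TET10 were highest on the reference array, as 12% of brighter probe sets were, and none of the 3 genes was. All 7 ratios of each share that array, so both were necessarily lower in every mix, and nothing is read from it. The log2 ratios were -0.26 to -0.06 for TET3 and -0.42 to -0.16 for TET10. TET10 was past 0.32 below in mixes 1 and 7, at log2 ratios of -0.33 and -0.42. Of the 35 ratios of the 5 brighter tetraspanins, 4 were past 0.32, 1 higher and 3 lower, against the 15.2% of brighter probe sets given above. The log2 SD was 0.092 for TET3 and 0.13 for TET10, and 71.4% and 55.2% of their neighbours by mean signal had at least as large an SD.

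TET6 and TET9 were dim. TET6, which shares the growth role of TET5, had its lowest signal, 8.7, in mix 6, where TET5 was highest, and its highest, 20.6, on the reference array, just above mix 3. It was at 13.6 in mix 1, where TET5 was lowest. TET9, which has been found with TET8 at sites of fungal infection, had 6.3 in mix 7 to 20.8 in mix 6, against 18.2 on the reference array, and it lay under the floor on 2 arrays. Values so close to the floor have little precision.

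Another 5 tetraspanins were dim as well. TET2, TET4, TET11, TET13 and TET14 had mean signals of 20.6 to 29.3. TET14 had the largest SD of the family, 0.46, with 32.4 in mix 5 against 12.7, under the floor, on the reference array. TET11, known from pollen, was lowest in mix 1, at 11.8 and thus under the floor, and highest in mix 6, at 31.7, the same lowest and highest arrays as TET5. TET12, known from sperm cells, TET15 and TET16 lay under the floor on all 8 arrays, with no signal above 8.5. Of the 12 tetraspanins above the floor somewhere, 4 were lowest in mix 1 and 5 were highest in mix 6, TET5 and TET8 among both. Of the brighter probe sets, 13.1% were lowest in mix 1 and 18.9% highest in mix 6, and nothing is read from the family's counts.

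**Figure D5:**
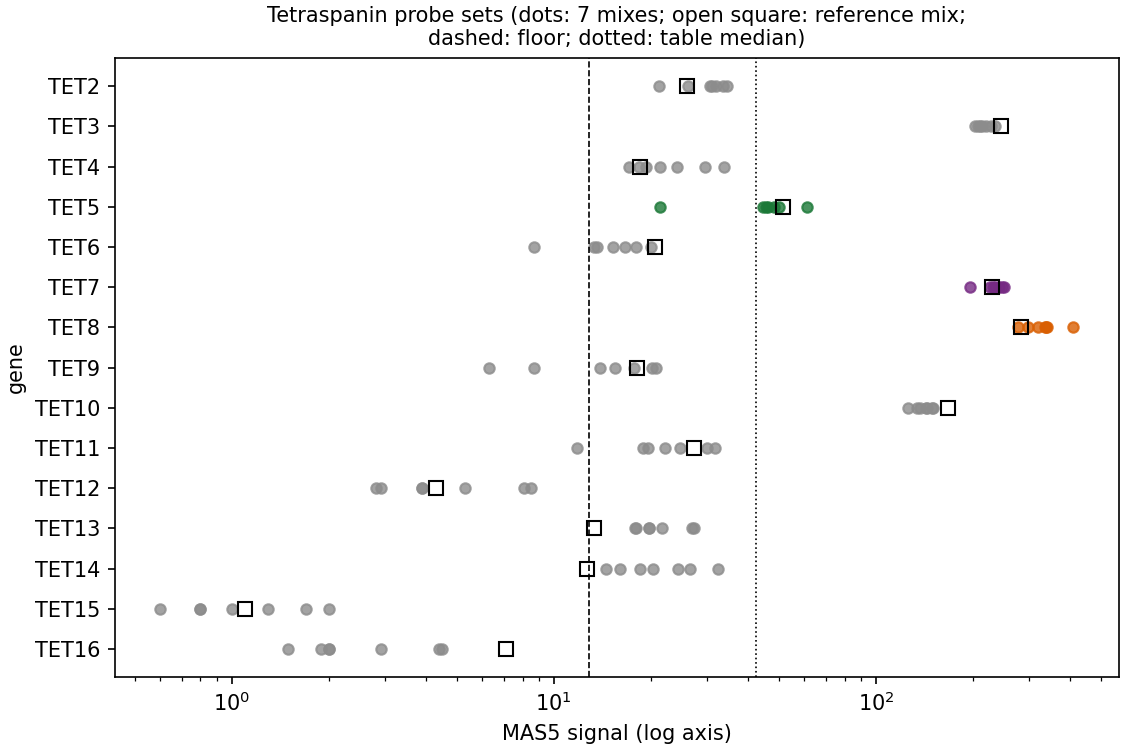
Signal of the 15 tetraspanin probe sets on a log axis, with dots for the 7 spike mixes and an open square for the reference mix; the dashed line is the floor of 12.9 and the dotted line the table's median of 42.5. TET3, TET7, TET8 and TET10 lie right of the median line on every array, TET5 on all arrays but mix 1, and TET12, TET15 and TET16 left of the floor; positions can be compared within a row, not between rows.

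Of 36 symbols listed for vesicle secretion, 7 had a probe set of 1 gene and 6 were brighter probe sets, with a median SD of 0.15 in log2 signal. They were ARA6, a Rab GTPase of multivesicular endosomes, and SEC5A, SEC6, SEC10, SEC15B and EXO84B, subunits of the exocyst that tethers vesicles to the plasma membrane. Of their 42 ratios to the reference array, 1 was past 0.32 above it and 5 below it, against 15.2% of brighter probe sets. The higher one was SEC6 in mix 5. The lower ones were SEC15B in mix 6 and SEC5A in mixes 1, 2, 6 and 7, so they came mostly from 1 probe set. ARA6 had the highest mean of the list, 291 ± 19.0 (SD, n = 8), and in mix 6, where TET8 was highest, it had 301.2 against 307.5 on the reference array. The median log2 ratio of the 6 in mix 6 was -0.18, and that of all brighter probe sets was 0.0015. In mix 7 the median of the 6 was also -0.18, and it was negative in every mix. All these ratios share the 1 reference array, on which SEC5A and EXO84B were highest, at 193.6 and 133.8, and the others were not. Nothing is therefore read from these medians. SEC15A was dim, at 30.9, and had the largest SD of the list, 0.23.

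Immune and leaf growth genes gave little to set beside TET8 and TET5. Of 22 immune symbols 6 were measured, and BIK1, a kinase of pattern-triggered immunity, was the only one among the brighter probe sets. BIK1 had 70.5 ± 8.08 (SD, n = 8), with 76.2 in mix 6 and 67.2 in mix 1, against 68.4 on the reference array. Of its 7 log2 ratios 1 was past 0.32, at 0.35 in mix 4, as 16.8% of brighter probe sets were in that mix. SAG101, a partner of EDS1 in immune signalling, had the largest SD of that list, 0.27, with a mean of 22.5 over the 8 arrays. Of 21 leaf growth symbols, AN and ARL were measured. AN had 106.3 in mix 1 and 77.2 in mix 6, against 94.4 on the reference array, and ARL had 103.4 and 133.7 against 115.2. Neither had a log2 ratio past 0.32, against 15.2% of the ratios of brighter probe sets. No gene of the membrane nanodomain list was analysed here.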

How the data were processed

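Per the submitters' processing notes, which state no version, the authors made the values with MAS5. The deposited intensity values are linear, 1 per probe set and array, and were used with no further scaling. The number of arrays, 1 per mix, limits the precision of every value.

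Gene names came from the annotation table of the platform, which gave 13513 probe sets with 1 gene, 503 with several and 8794 without a name here, and the symbols were checked in a gene table of TAIR10.1. The floor was the 25th percentile of the table. A ratio was counted when its log2 value was at least 0.32 from 0. SDs were taken over the 8 arrays. For each gene the 3 named probe sets with the highest Pearson r were named, and in each list the member with the highest mean and the one with the largest SD. The genes and lists were chosen with earlier results of these data known, so no p-value is given. Other folds, a different comparator, leaving out arrays, a lower floor (10th percentile), a higher one (40th), quantile normalization and a common median were tried as alternatives; the r without a gene's farthest array, the relations with the array controls and the comparators for single arrays were added after the data were seen. The count of ratios past a fold, the correlation and the quantile normalization were tested on simulated data with less noise than the arrays. The other steps were not tested in this way. Tables were handled with pandas 2.3.3 and numpy 2.4.6 under Python 3.11.15, correlations with scipy 1.17.1, and figures with matplotlib 3.10.9.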

Additional observations from a re-analysis of the deposited data

Results flagged for a closer look

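TET5 in mix 1 had a signal of 21.4, and the gap to the next array took up 0.71 of the range of its log2 signals, so this array lay far from the others. TET7 in mix 6 had a signal of 196.2, with a gap of 0.59 of its range. The genes were chosen with these signals known, so the gaps are a description and no test of these arrays. The 8 arrays carry different mixes and are treated as 1 group here because the labels give the same shoots for all. Both gaps are past Dixon's 95% limit for 8 values, which serves here only as a cut for flagging. Its chance rate, about 1 of 20 groups, is for replicates of 1 group picked without sight of their values. It does not apply to TET5 and TET7, which were chosen with their signals known and measured on arrays of different mixes. Of the 12 tetraspanins above the floor on at least 1 array, these 2 had such a gap. Among the 12, 4 had values raised to the floor, which alters their gaps, and 7 were too dim for the brighter probe sets. Of the brighter probe sets 6.90% had such a gap, 2.09% with mix 6 as the lowest array and 0.423% with mix 1 as the lowest.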

How the results depend on the processing

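No paired analysis was possible because each mix has 1 array. Scaling to a common median moved the log2 range of TET7 to 0.45, that of TET8 to 0.47 and the count of log2 ratios past 0.32 to 3. The floor at the 40th percentile lay above TET5 in mix 1 and moved its SD to 0.33 and its log2 range to 1.14. Under quantile normalization and the floor at the 10th percentile the count was 2 and the SD of TET5 was 0.41 and 0.45. The correlations were run under the common median and quantile normalization, where r was -0.60 and -0.69 for TET5 and TET7, 0.58 and 0.61 for TET5 and TET8, and -0.59 and -0.67 for TET7 and TET8, and not under the other floors. Leaving out arrays changed more. Without mixes 4, 5 and 6 the log2 range was 0.12 for TET7 and 0.30 for TET8, the SD of TET7 was 0.050, and r for TET7 and TET8 was -0.053. Leaving out 1 array at a time gave log2 ranges of 0.45 to 1.51 for TET5, 0.14 to 0.35 for TET7 and 0.30 to 0.57 for TET8, and SDs of 0.15 to 0.49, 0.054 to 0.12 and 0.13 to 0.20 for the same genes. The lowest came without mix 1 for TET5 and without mix 6 for TET7 and TET8. In the same way r was -0.85 to -0.64 for TET5 and TET7, 0.55 to 0.80 for TET5 and TET8, and -0.75 to 0.072 for TET7 and TET8, the last reversed without mix 6. The count of log2 ratios past 0.32, 2, was 1 at 1.5-fold, 1 at 2-fold and 1 to 2 with a mix left out, 1 without mix 1 or mix 6. With 1 array per mix, a difference between mixes and one between arrays cannot be told apart.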
